A study of Mus musculus with 6 samples.

Results

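Matrix glycoproteins and proteoglycans are the non-collagen molecules that differentiating adipocytes secrete around themselves. The 10 genes examined here were taken from the deposited table by symbol, as *Vcan*, *Fn1*, *Dcn*, *Lum*, *Bgn*, *Sparc*, *Fbn1*, *Postn*, *Tnc* and *Thbs1*. All 10 were found among 52089 symbols, with 106 of 168021 accession lines, and all 10 passed the filter on low values that left 11701 genes for testing. They were compared between 3 libraries with knockdown (KD) of the long noncoding RNA *Ctcflos* and 3 libraries treated with a nontargeting control oligonucleotide (NC ctrl). The cells of both groups were primary brite adipocytes, which are thermogenic adipocytes grown from precursors of inguinal white fat of 129SvEv mice. They were induced for 2 days, differentiated with rosiglitazone for 1 day, transfected with 50 nM of locked nucleic acid gapmer and harvested after 24 h. The only oligonucleotide against *Ctcflos* in these libraries was ASO1, and what it does besides lowering *Ctcflos* cannot be told apart here from the loss of the RNA.

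Fibronectin (*Fn1*) is assembled into fibrils on the cell surface and is one of the first components of a new matrix. Fibrillin-1 (*Fbn1*) builds the microfibrils that carry elastin and hold latent growth factors. Versican (*Vcan*) is a large proteoglycan that binds hyaluronan, whereas decorin (*Dcn*), lumican (*Lum*) and biglycan (*Bgn*) are small leucine-rich proteoglycans that bind collagen fibrils. Osteonectin (*Sparc*), periostin (*Postn*), tenascin C (*Tnc*) and thrombospondin 1 (*Thbs1*) are matricellular proteins, which act on cells and on matrix assembly more than as scaffold. Adipose precursors make a fibrous matrix that is remodelled while they become rounded, lipid-filled cells.

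The libraries held 60.8 to 75.5 mio mapped reads in KD and 62.9 to 79.2 mio in controls, as recovered from the deposited values. The study names fewer reads per sample for this sequencing. Whether both ends of a read pair were counted was not tested. *Ctcflos* (1300015D01Rik) had 0.0969, 0.0705 and 0.210 RPKM (reads per kilobase of transcript and mio mapped reads) in the KD libraries, replicates 1 to 3 in order, against 0.748, 0.751 and 0.840 RPKM with the control oligonucleotide. KD replicate 3 stood between the groups. Across genes, over log2 values of those tested, it correlated with control replicate 2 at r = 0.985, with KD replicate 1 at r = 0.969 and with KD replicate 2 at r = 0.975, whereas the controls correlated among themselves at 0.989 or more. Values of the members are therefore also given without KD replicate 3. The labels do not say whether replicates were separate cultures, so that p-values measure the spread between these libraries.

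*Vcan*, *Fn1* and *Tnc* have exons that are spliced in or left out. Their sequences are shown because in each exon the use in every KD library lay on 1 side of every control. Versican carries its chondroitin sulfate chains on stretches encoded by exon 7 (GAG-α domain, chr13:89702918-89705797, minus strand, GRCm38) and exon 8 (GAG-β domain, chr13:89688285-89693501). Either can follow exon 6, which gives the forms V0 with both exons, V1 with exon 8, V2 with exon 7 and V3 with neither. Below, 30 bases of exon 6 in lower case run into the first 120 bases of exon 7 or exon 8 in capitals.
Vcan exon 6 into exon 7: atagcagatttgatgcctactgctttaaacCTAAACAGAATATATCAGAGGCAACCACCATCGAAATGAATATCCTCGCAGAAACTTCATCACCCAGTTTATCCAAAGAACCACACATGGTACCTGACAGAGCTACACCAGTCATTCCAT
Vcan exon 6 into exon 8: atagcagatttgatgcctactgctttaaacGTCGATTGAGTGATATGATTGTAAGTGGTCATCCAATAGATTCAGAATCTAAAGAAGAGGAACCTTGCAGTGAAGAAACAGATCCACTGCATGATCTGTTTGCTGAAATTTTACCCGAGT
In *Fn1*, a coding exon of 270 bases (chr1:71603660-71603929, minus strand) encodes the extra domain A (EDA), a fibronectin type III repeat that is left out of plasma fibronectin. In *Tnc*, a coding exon of 273 bases (chr4:63984460-63984732, minus strand) encodes 1 of the type III repeats that tenascin C can carry in addition to its constant ones. Capitals mark these exons and lower case 12 bases of each neighbouring exon. Positions and sequences are from the Gencode vM21 transcripts.
Fn1 EDA exon: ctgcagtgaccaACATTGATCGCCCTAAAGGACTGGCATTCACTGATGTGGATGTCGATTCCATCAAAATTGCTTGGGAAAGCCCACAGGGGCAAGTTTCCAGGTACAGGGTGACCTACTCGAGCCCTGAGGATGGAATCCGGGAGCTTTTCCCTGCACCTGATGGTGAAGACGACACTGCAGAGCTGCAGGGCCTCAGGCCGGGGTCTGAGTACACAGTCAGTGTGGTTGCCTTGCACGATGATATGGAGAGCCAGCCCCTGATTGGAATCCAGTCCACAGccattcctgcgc
Tnc 273-base exon: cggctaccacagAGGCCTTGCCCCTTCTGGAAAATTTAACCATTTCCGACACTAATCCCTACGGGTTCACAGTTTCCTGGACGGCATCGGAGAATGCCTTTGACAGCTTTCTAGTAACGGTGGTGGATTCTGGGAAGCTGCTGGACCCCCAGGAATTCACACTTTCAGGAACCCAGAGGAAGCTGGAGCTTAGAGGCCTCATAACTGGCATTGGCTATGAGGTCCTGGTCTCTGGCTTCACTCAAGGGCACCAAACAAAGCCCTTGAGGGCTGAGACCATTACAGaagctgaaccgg

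To ask whether the level of each gene differed, its RPKM was averaged over its accessions and compared with limma on log2(RPKM + 1), a scale that understates the change of low genes. P-values were adjusted over all 11701 genes. *Fbn1*, *Postn* and *Tnc* were lower in KD at an adjusted p under 0.05, and 0 were called higher by limma, also at an unadjusted p of 0.05. Of all genes, 24.0% were called in either direction and 12.4% were called lower, so that 3 of 10 is a share near the background of this comparison. That background depends on single libraries: of the 11701 genes 2803 were called, and leaving out 1 library gave 423 without control replicate 3, 434 without control replicate 1, 1082 without KD replicate 2, 1165 without KD replicate 1, 1632 without control replicate 2 and 4784 without KD replicate 3. The KD and control libraries did not overlap in 6 members, 5 lower and 1 higher, against 44.8% of all genes.

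**Figure D1:**
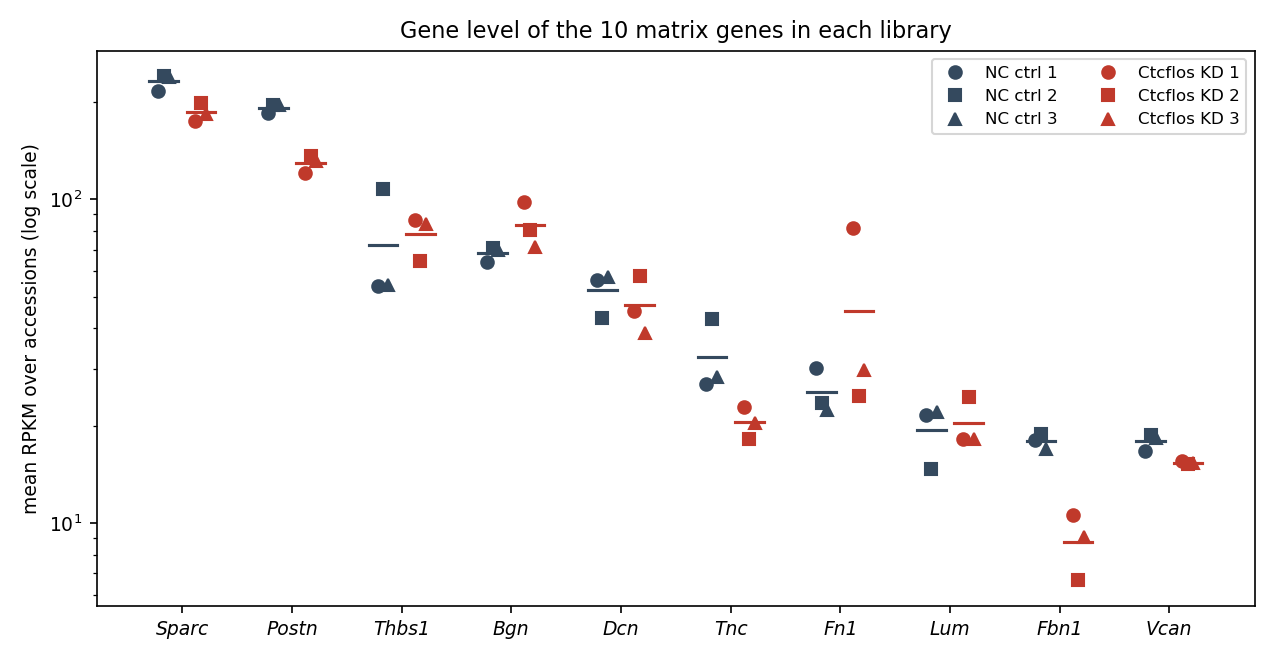
Mean RPKM over accessions (log scale) of each gene, with 1 point per library, the mean of each group as a line, controls in grey and KD in red, and symbols for replicates 1 to 3. *Fbn1* shows the widest gap, with 6.65 to 10.6 RPKM in KD against 16.9 to 18.8 in controls, while *Fn1* in KD replicate 1 and *Thbs1* in control replicate 2 lie far from the rest of their groups.

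*Fbn1* spans 207.4 kb (chr2:125300594-125507993, minus strand). Its level was 10.6, 6.65 and 9.05 RPKM in KD and 18.1, 18.8 and 16.9 RPKM in controls. Every KD library was far below every control, with KD replicate 2 lowest. The mean fell from 17.9 ± 0.946 RPKM (SD, n = 3) in controls to 8.77 ± 1.99 RPKM (SD, n = 3) in KD, which is 48.9% of the control level (log2 fold change -0.97, with a standard error of 0.159 and an adjusted p = 0.00834 from limma). It was called under all 13 other settings, with an adjusted p of 0.0475 at most, and of 0.00418 from limma without KD replicate 3. *Fbn1* is the only member of 100 kb or more. The 886 tested genes of at least 100 kb had a median log2 fold change of -0.34 and 45.3% of them were called lower, while shorter genes had a median of 0.052. The part of gene length in the *Fbn1* result was not tested.

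*Postn* (chr3:54361109-54391037, plus strand), a matricellular protein that binds collagen and integrins, had 121, 136 and 132 RPKM in KD and 185, 196 and 196 RPKM in controls. The groups were well separated and the libraries within each were close. The means were 129 ± 7.70 and 192 ± 5.98 RPKM (SD, n = 3), so that KD held 67.3% of the control level (log2 fold change -0.57, with a standard error of 0.121 and an adjusted p = 0.0168 from limma). The call was kept without KD replicate 3 (adjusted p = 0.0125 from limma), and was lost without control replicate 1 (0.0705) and without control replicate 3 (0.0846), although the log2 fold change stayed between -0.60 and -0.52 whichever library was left out.

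*Tnc* (chr4:63959785-64047015, minus strand), which reduces the attachment of cells to fibronectin, had 22.9, 18.2 and 20.4 RPKM in KD and 27.0, 42.8 and 28.2 RPKM in controls. The groups did not overlap, but control replicate 2 was well above the other controls. The means were 20.5 ± 2.34 and 32.7 ± 8.80 RPKM (SD, n = 3; log2 fold change -0.62, with a standard error of 0.188 and an adjusted p = 0.0465 from limma). This call is at the edge of the threshold. It was lost whichever library was left out, with adjusted p-values from limma of 0.0505 without KD replicate 3 to 0.134 without KD replicate 2, and the log2 fold change was -0.42 without control replicate 2. It was also lost when weakly expressed genes were kept in the test (adjusted p = 0.104 from limma).

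The starts of these 3 genes were examined for letters they share. The 250 bases before the RefSeq start (GRCm38.p6) are shown, for *Postn* and *Tnc* before the one of 2 listed starts that is closer to the Gencode start, with TATAAA, the only motif found among those searched, in capitals.
Fbn1, chr2:125506439-125506688, minus strand: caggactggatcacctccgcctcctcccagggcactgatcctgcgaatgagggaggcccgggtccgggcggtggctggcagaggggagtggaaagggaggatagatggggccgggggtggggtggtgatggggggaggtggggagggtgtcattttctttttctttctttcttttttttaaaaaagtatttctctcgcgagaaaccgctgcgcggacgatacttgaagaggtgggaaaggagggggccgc
Postn, chr3:54360857-54361106, plus strand: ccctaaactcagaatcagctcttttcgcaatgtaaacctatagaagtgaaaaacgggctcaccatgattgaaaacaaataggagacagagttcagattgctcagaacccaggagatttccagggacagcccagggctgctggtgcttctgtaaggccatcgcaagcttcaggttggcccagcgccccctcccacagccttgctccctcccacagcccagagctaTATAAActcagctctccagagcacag
Tnc, chr4:64047016-64047265, minus strand: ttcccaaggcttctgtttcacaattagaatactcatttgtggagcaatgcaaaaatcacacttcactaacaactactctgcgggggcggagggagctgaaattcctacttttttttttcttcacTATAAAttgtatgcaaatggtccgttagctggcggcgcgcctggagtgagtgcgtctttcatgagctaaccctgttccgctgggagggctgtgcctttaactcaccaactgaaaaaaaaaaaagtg
TATAAA was found in *Postn*, starting 26 bases before the start, and in *Tnc*, 126 bases before it, and not in *Fbn1*. Before the other start listed for *Tnc* the same letters lie 205 bases away, and before that of *Postn* (chr3:54359017-54359266) there are none. Of all 32851 promoters of this length, 12.4% hold it on either strand. GGAATG, a motif of TEAD factors held by 12.6% of promoters, and TGANTCA, a motif of AP-1 held by 6.75%, were in none of these windows. The *Fbn1* window lies inside the gene span given above, and the bases before the Gencode start of *Fbn1* were not searched. Promoters of 6 members were in the table used, and *Fn1*, *Dcn*, *Lum* and *Thbs1* were not matched.

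**Figure D2:**
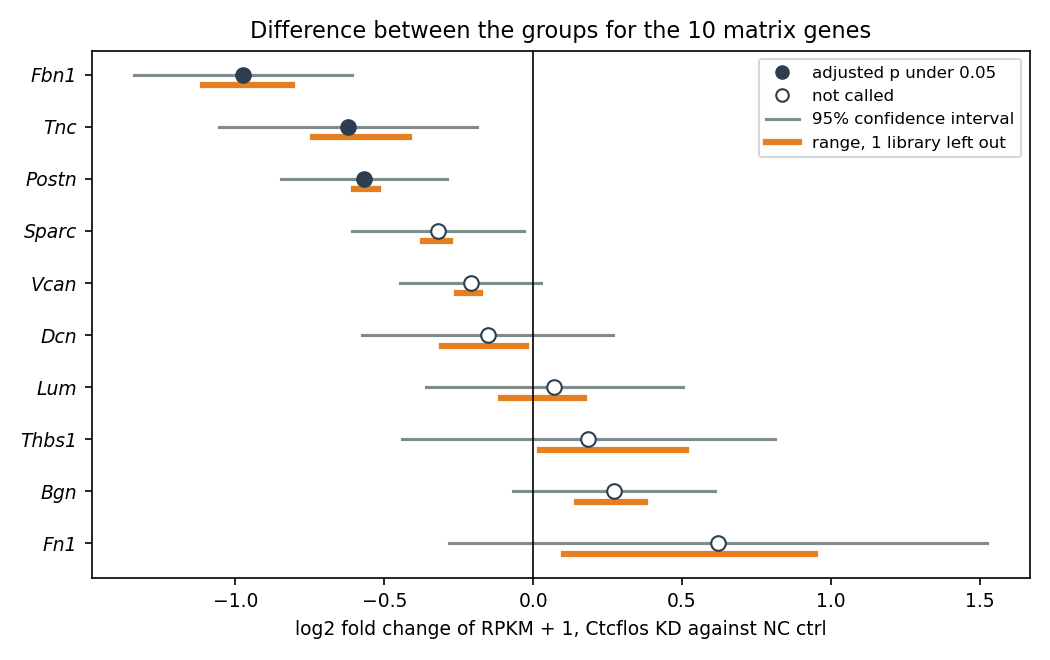
Log2 fold change of RPKM + 1 between *Ctcflos* KD and NC ctrl for each gene (points, filled where the adjusted p from limma is under 0.05), with the 95% confidence interval (grey) and the range when 1 library is left out (orange). *Fbn1*, *Tnc* and *Postn* are filled, with log2 fold changes of -0.97, -0.62 and -0.57, and *Fn1* has the widest interval, from -0.28 to 1.52.

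*Sparc* and *Vcan* were below the controls in every KD library without passing the test. *Sparc*, a collagen-binding protein of secretory cells, had 175, 199 and 184 RPKM in KD and 217, 241 and 239 RPKM in controls (log2 fold change -0.32, adjusted p = 0.0986 from limma). Its mean in KD was 80.0% of that in controls, and the 95% confidence interval of the log2 fold change ran from -0.61 to -0.03. *Vcan* had 15.5, 15.2 and 15.3 RPKM in KD and 16.7, 18.8 and 18.3 RPKM in controls, so that KD held 85.6% of the control mean (log2 fold change -0.21, interval -0.45 to 0.03, adjusted p = 0.17 from limma). The KD libraries were almost equal, and control replicate 1 was nearest to them. Without KD replicate 3 the log2 fold change was -0.31 for *Sparc* (adjusted p = 0.117) and -0.21 for *Vcan* (adjusted p = 0.160 from limma).

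The small leucine-rich proteoglycans did not differ at the threshold. *Bgn* had 98.1, 80.4 and 71.1 RPKM in KD and 64.2, 70.7 and 69.7 RPKM in controls. Every KD library was above every control, yet KD replicate 3 by less than 1 RPKM, and the log2 fold change of 0.27 had an interval from -0.07 to 0.61 (adjusted p = 0.208 from limma). Without KD replicate 1 it was 0.15 and without KD replicate 3 it was 0.38 (adjusted p = 0.0671 from limma).

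*Dcn* had 45.2, 57.9 and 38.8 RPKM in KD and 56.4, 43.1 and 57.8 RPKM in controls (log2 fold change -0.15, interval -0.57 to 0.27, adjusted p = 0.562 from limma). *Lum*, its neighbour on chromosome 10, had 18.2, 24.6 and 18.3 RPKM in KD and 21.5, 14.7 and 22.0 RPKM in controls (log2 fold change 0.07, interval -0.36 to 0.50, adjusted p = 0.80 from limma). Without KD replicate 3 the log2 fold change was -0.023 for *Dcn* (adjusted p = 0.929) and 0.14 for *Lum* (adjusted p = 0.611 from limma). For both genes KD replicate 2 was highest in KD and control replicate 2 was lowest among the controls. Summed over 7 preadipocyte or fibroblast markers, KD replicate 3 (184.6 RPKM) and control replicate 2 (282.2 RPKM) were the lowest, as they were for *Dcn*. The other libraries had sums of 352.0 to 455.8 RPKM. Most of each sum was *Ly6a*, with 152 RPKM in KD replicate 3 and 243 RPKM in control replicate 2. Other markers of the list had another order: *Pdgfra* was highest among KD libraries in replicate 3 (14.0 RPKM), and *Pdgfrb* (10.9 RPKM) and *Thy1* (7.59 RPKM) were highest among controls in replicate 2. The part of these markers in the levels of *Dcn* and *Lum* was not tested. In a bulk sample, fewer cells of a type and less RNA per cell cannot be told apart.

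For *Fn1* and *Thbs1*, single libraries decided the mean. *Fn1* had 81.5, 24.6 and 29.8 RPKM in KD and 30.2, 23.6 and 22.3 RPKM in controls. KD replicate 1 thus held more than any other library, while the remaining KD libraries lay within or close to the controls. The log2 fold change of 0.62 (adjusted p = 0.274 from limma) was 0.10 without that library (adjusted p = 0.707) and 0.81 without KD replicate 3 (adjusted p = 0.167). *Thbs1*, which inhibits the growth of vessels and activates latent TGF-β, had 86.5, 64.5 and 84.2 RPKM in KD and 54.1, 108 and 54.3 RPKM in controls. Control replicate 2 was the highest of all, and the log2 fold change of 0.19 (interval -0.44 to 0.81, adjusted p = 0.639 from limma) was 0.51 without it (adjusted p = 0.0898) and 0.13 without KD replicate 3 (adjusted p = 0.762). The same library had the highest sum of 5 smooth muscle or pericyte markers, 87.1 RPKM against 18.0 to 50.0 in the others. Nearly all of that sum was *Acta2*, and the part of these markers in *Thbs1* was not tested.

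In the controls the order of levels per transcript length was *Sparc* (232 ± 13.4 RPKM), *Postn* (192 ± 5.98), *Thbs1* (72.1 ± 31.1), *Bgn* (68.2 ± 3.50), *Dcn* (52.4 ± 8.10), *Tnc* (32.7 ± 8.80), *Fn1* (25.4 ± 4.25), *Lum* (19.4 ± 4.10), *Fbn1* (17.9 ± 0.946) and *Vcan* (17.9 ± 1.08; SD, n = 3 for each). The control libraries of *Thbs1* and *Bgn* overlapped, as did *Tnc* and *Fn1*, *Lum* and *Fbn1*, and *Fbn1* and *Vcan*, so that these neighbours were not separated. The levels are means over unlike accessions: the 730-base clone AK162378 of *Fbn1* had 59.7 to 66.1 RPKM in controls, and the full-length NM_007993 had 15.0 to 17.3 RPKM. Exons of at most 100 bases drew a median of 0% of the reads that their transcript would give, in 13 exons read from pairs of accessions. The median was 61.6% in 3 exons over 300 bases, *Vcan* exons 7 and 8 among them. All these exons can be left out, so that size and use of an exon cannot be told apart. Whether small exons that are always spliced in also draw few reads, and so touch the order of levels, was not tested.

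The accessions of a gene were then compared with each other, to find whether some moved differently. The test was limma diffSplice on log2(RPKM + 0.1) for 103 of the 106 accessions. *Vcan* (adjusted p = 4.53e-09) and *Sparc* (adjusted p = 0.0142) were called from limma, against 0.768% of 10027 genes tested. The *Sparc* call was lost when any library other than KD replicate 2 was left out (adjusted p = 0.0681 without KD replicate 3), while *Vcan* was called in each of these fits. Over all genes 77 were called, and 33 without control replicate 3 to 215 without KD replicate 3, with 38 without control replicate 1. Accessions of 1 gene share reads, which such a test treats as independent, and a test of each accession relative to the mean of its gene called 0 of 10027 genes, where 765 had an unadjusted p under 0.05, *Vcan* and *Fbn1* among them.

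**Figure D3:**
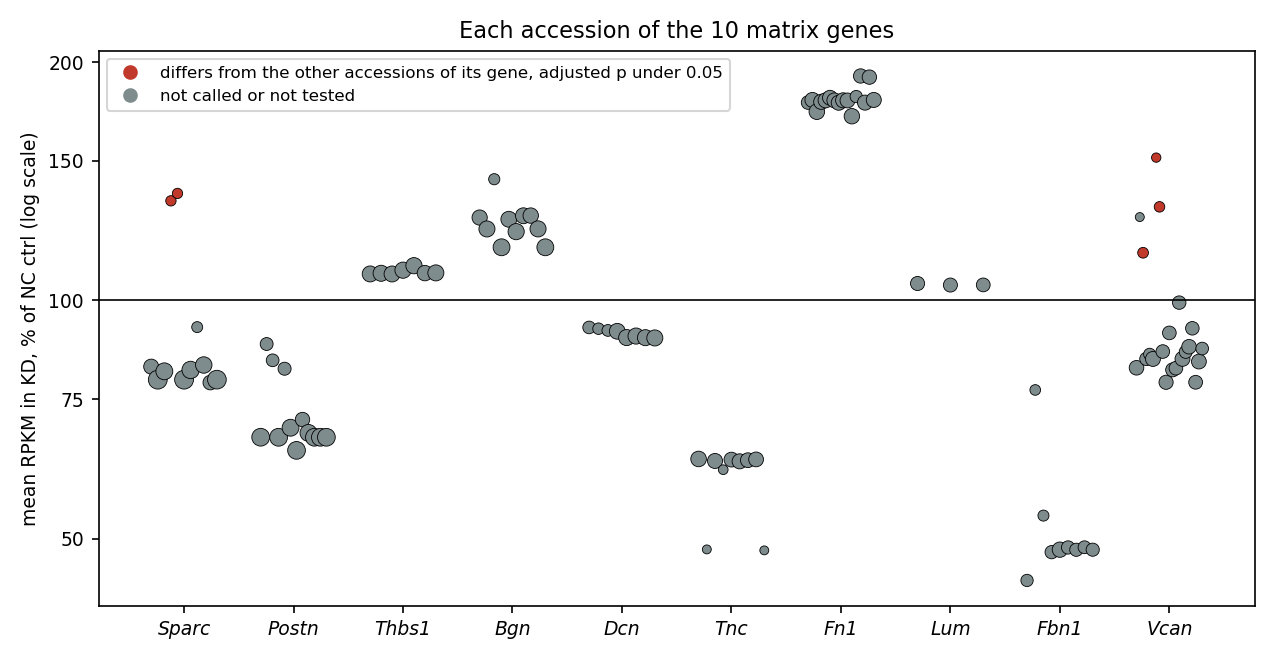
Mean RPKM in KD as a percentage of NC ctrl (log scale) for each of the 106 accessions, grouped by gene, with larger points for higher mean RPKM and red for accessions that differed from the others of their gene (adjusted p under 0.05 from limma). The red points are small: 3 weak *Vcan* accessions and 2 weak *Sparc* accessions lie above 100% while the strong accessions of both genes lie below.

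The 5 accessions called, against 0.207% of 64643, were all weakly covered GenBank clones. In *Vcan*, AK083723 had 1.57, 1.19 and 1.30 RPKM in KD and 0.905, 0.758 and 1.02 RPKM in controls, with an adjusted p of 1.76e-09 from limma. Its share of the summed RPKM of the gene was 0.420 ± 0.0554% in KD and 0.238 ± 0.0399% in controls (SD, n = 3). AK087780 and AK032794 had mean shares of 0.886 and 0.950% in KD and 0.580 and 0.710% in controls. All 3 shares rose without overlap between the groups (exact two-sided p = 0.1, the floor for 3 libraries a group). In *Sparc*, AK139473 rose from a share of 0.0723 ± 0.00984% to 0.124 ± 0.0276% (SD, n = 3; adjusted p = 0.00671 from limma) and AK089114 from 0.0748 to 0.126%. No Gencode transcript of the same length was found for these 5 clones, and where they lie in the genes was not derived here.

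All 5 called accessions were thus of *Vcan* or *Sparc*. Without KD replicate 2, *Postn* (adjusted p = 0.00793) and *Fbn1* (adjusted p = 0.0107 from limma) were called for usage too. Over the accessions tested, the share did not overlap between the groups in 13 of 103, or 12.6%, against 14.0% of all accessions. *Fn1*, *Dcn*, *Lum*, *Bgn* and *Postn* had no accession with separated shares. In *Dcn* the accessions in KD were 89.7 to 92.5% of the control level, and in *Lum* 104.6 to 105.1%, so that the accessions of each gene lay close together. In *Fbn1* all 9 accessions were lower in every KD library, at 44.3 to 77.1% of the control level. The clone AK080935 stood at the upper end, and its share was 1.90 ± 0.0527% in controls and 3.02 ± 0.0936% in KD (SD, n = 3; unadjusted p = 0.00185, adjusted p = 0.364 from limma). In *Bgn*, whose mean was highest in KD replicate 1, the RefSeq mRNA NM_007542 had 156, 156 and 135 RPKM in KD and 118, 134 and 131 RPKM in controls, so that replicates 1 and 2 were level there.

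The RefSeq mRNAs of *Vcan* stand for its splice forms. V1 (NM_019389), the form with exon 8 alone, had 30.6, 30.5 and 31.2 RPKM in KD and 33.9, 38.9 and 37.4 RPKM in controls, and V3 (NM_001134475) had 15.8, 15.4 and 16.1 RPKM in KD and 18.9, 21.0 and 20.1 RPKM in controls. Both were lower in every KD library. V0 (NM_001081249) had 26.7, 26.3 and 26.8 RPKM in KD and 27.9, 32.3 and 31.0 RPKM in controls, and was lower in every KD library too. V2 (NM_001134474), with exon 7 alone, had 15.0, 14.1 and 14.6 RPKM in KD and 14.5, 16.8 and 16.0 RPKM in controls, which overlap. The share of V3 was 5.32 ± 0.0869% in controls and 4.89 ± 0.109% in KD, and that of V2 was 4.19 ± 0.0640% and 4.51 ± 0.0862% (SD, n = 3), each without overlap (exact two-sided p = 0.1). The diffSplice test called neither (unadjusted p = 0.00785 for V3 and 0.784 for V2 from limma), and when RefSeq mRNAs were tested alone, 0 of 3 members were called by limma, with 0 at an unadjusted p under 0.05.

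These forms share most of their reads, so that their RPKM values dilute a change in 1 exon. The table holds enough to take the exons apart. For each accession of the members, a transcript length turned all 6 values into whole reads to within 0.0045 reads, and for 21 of 21 Ensembl accessions that length was the one in Gencode. This match is partly built in. Depth was fitted with Gencode lengths, and a length without a match could be replaced by a multiple that did match. The reads of an exon are the difference between accessions that differ by that exon alone. Below, an exon is set against the RPKM of the shorter form, which also holds reads shared with other forms. Such percentages are therefore not the share of transcripts that hold the exon. For *Vcan* the recovered lengths differ by exactly the 2880 bases of exon 7 and the 5217 bases of exon 8, and each exon could be read from a second pair of forms (V0 with V1, or V0 with V2) that gave the same reads in every library. Reads that add up over the exons of a form give this equality by themselves, so that it is not a second measurement.

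*Vcan* exon 7 held 2974, 2645 and 2146 reads in KD and 1791, 2384 and 1785 reads in controls. Per exon length and depth this is 13.7, 12.2 and 12.3 RPKM in KD and 7.97, 10.4 and 9.86 RPKM in controls, so that the exon was higher in every KD library. Exon 8 had 42.9, 43.1 and 43.6 RPKM in KD and 46.3, 53.7 and 51.9 RPKM in controls. Like the gene as a whole, it was lower in every KD library. Relative to V3, exon 7 was at 80.7 ± 5.29% in KD and 47.0 ± 4.19% in controls (SD, n = 3). Exon 8 relative to V3 was also higher in every KD library. Exon 7 as a percentage of exon 8 was 31.9, 28.4 and 28.1% in KD and 17.2, 19.5 and 19.0% in controls. The mean was 18.6 ± 1.19% in controls and 29.5 ± 2.10% in KD (SD, n = 3), a ratio of 1.59 that stayed between 1.52 and 1.63 whichever library was left out (exact two-sided permutation test, p = 0.1). The ratio of GAG-α to GAG-β sequence was thus higher in all KD libraries, replicate 3 included, while the gene as a whole was at 85.6% of the control level.

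The *Fn1* EDA exon was read from the clones AK147639 and AK147701, whose recovered lengths of 7680 and 7410 bases equal those of Gencode transcripts that differ by this exon. The clones were matched by length alone. The exon held 1479, 380 and 395 reads in KD and 391, 329 and 229 in controls. Relative to the RPKM of the transcript without it, this is 87.5, 76.7 and 81.0% in KD and 60.5, 65.4 and 60.1% in controls. All KD libraries were above all controls, KD replicates 2 and 3 included, in which the level of *Fn1* was not raised. The mean was 81.7 ± 5.46% against 62.0 ± 2.97% (SD, n = 3; ratio 1.32, range 1.27 to 1.36 with 1 library left out, exact two-sided p = 0.1). A stretch of 285 bases (chr1:71597388-71597672), matched in the same way, overlapped between the groups, at 355, 410 and 428% in KD and 387, 427 and 403% in controls (exact two-sided p = 0.9). Of the alternative stretches of *Fn1* read here, the EDA exon was thus the one with separated groups. Other stretches of *Fn1* were not read, and other clones that differ by as many bases, without a Gencode transcript for each length, were not compared. Whether the exons differ from each other in their response was not tested.

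The *Tnc* exon of 273 bases held few reads, 29, 17 and 14 in KD and 65, 88 and 56 in controls. Relative to the transcript without it, this is 4.77, 3.53 and 3.22% in KD and 8.94, 7.36 and 8.97% in controls. Each KD library was below each control. The mean was 3.84 ± 0.820% against 8.42 ± 0.921% (SD, n = 3; ratio 0.456, range 0.401 to 0.493 with 1 library left out, exact two-sided p = 0.1) where the gene as a whole was at 62.8% of the control level.

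**Figure D4:**
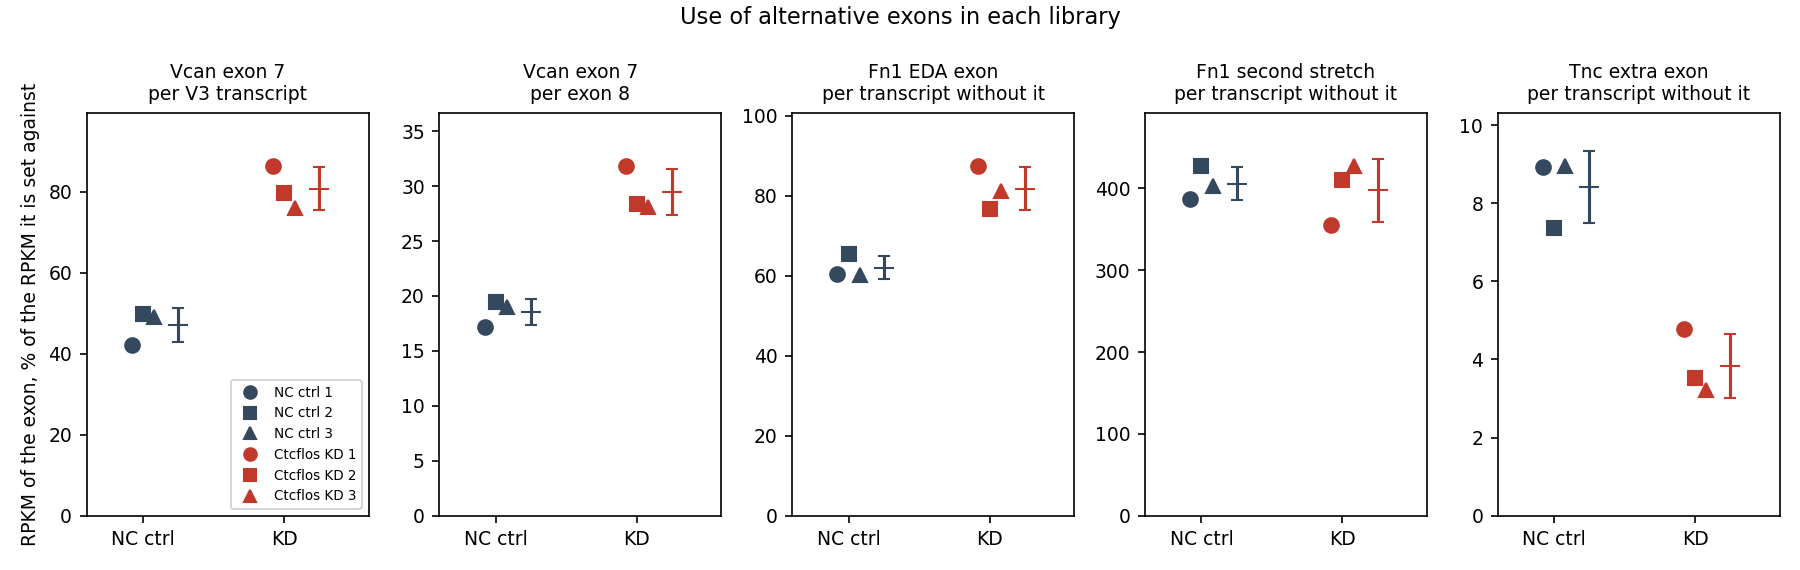
RPKM of an alternative exon as a percentage of the RPKM it is set against, with 1 point per library and the mean ± SD of the 3 libraries of each group at the side. *Vcan* exon 7 and the *Fn1* EDA exon lie higher in all KD libraries, the *Tnc* exon lies lower at 3.22 to 4.77% against 7.36 to 8.97%, and the second stretch of *Fn1*, of 285 bases, overlaps.

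Over 6 such values of the members, the exact p-values adjusted for their number were 0.12 or more, where a single value cannot go below 0.1. Among 25 exons read in this way across the table with at least 20 reads on average, those of the members included, 32.0% did not overlap between the groups. Of the 5 exons of the members 4 did not overlap, and of the 20 exons of other genes 4. The member exons were chosen by hand, mostly from RefSeq and GenBank pairs, and the others came from a scan of Ensembl pairs. The counts are therefore not like for like. Among the member exons without overlap is *Vcan* exon 8 relative to V3, at 274 ± 5.27% in KD and 253 ± 6.98% in controls (SD, n = 3). In *Postn*, exons of 81 and 84 bases held 0 to 7 reads in every library, where the transcript without them had 200.8 to 328.4 RPKM. All 13 exons of at most 100 bases, these included, lay under 5% of their transcript, so that use of the *Postn* exons could not be compared.

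To place the members among the genes that work with them, 6 lists of other matrix genes were examined. Of 111 genes listed, 67 passed the filter, 6 were called higher and 12 lower, with a median log2 fold change of -0.088. These 18 of 67 are close to the 24.0% called over all genes, of which 11.5% were higher and 12.4% lower. They became 22 without KD replicate 3 and 4 without control replicate 1 or control replicate 3. The median was -0.18 for the members and 0.028 for all 11701 genes.

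**Figure D5:**
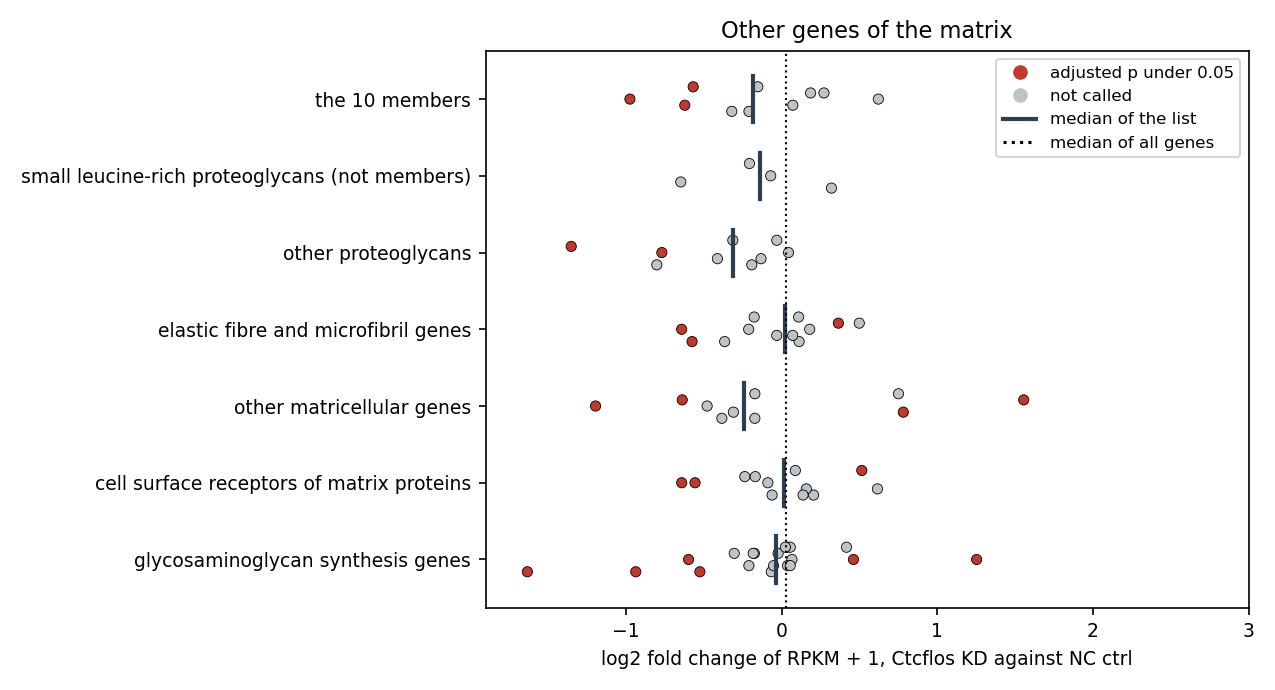
Log2 fold change of RPKM + 1 of each gene tested, for the 10 members and 6 lists of other matrix genes, in red where the adjusted p from limma is under 0.05, with the median of each list (bar) and of all genes (dotted line). Called genes lie on both sides in 4 of the lists, from *Dsel* at -1.63 to *Ctgf* at 1.55.

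Proteoglycans other than the members held the lowest median, -0.31, with 2 of 9 tested genes called, both lower. *Gpc6*, a glypican anchored to the cell surface, had 0.638, 0.443 and 0.981 RPKM in KD and 3.14, 3.50 and 3.17 RPKM in controls (log2 fold change -1.35, adjusted p = 0.00203 from limma). *Agrn*, the heparan sulfate proteoglycan agrin, had a log2 fold change of -0.77 (adjusted p = 0.0156 from limma). Of 11 small leucine-rich proteoglycans besides *Dcn*, *Lum* and *Bgn*, 4 were tested, with a median of -0.14, and 0 were called by limma, with 0 at an unadjusted p under 0.05. Their adjusted p-values lay between 0.131 and 0.729.

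Among genes of elastic fibres and microfibrils, the structures that contain fibrillin-1, 1 of 12 tested was higher and 2 were lower, with a median of 0.020. *Fbln2*, a fibulin that binds fibrillin-1, had 25.8, 22.0 and 23.5 RPKM in KD and 31.8, 38.1 and 37.9 RPKM in controls (log2 fold change -0.58, adjusted p = 0.0183 from limma). *Loxl2*, which crosslinks collagen and elastin, had -0.64 (adjusted p = 0.0130), and *Mfap2*, a microfibril protein, rose by 0.36 at a low level of 0.914 ± 0.127 RPKM in controls and 1.46 ± 0.0981 RPKM in KD (SD, n = 3; adjusted p = 0.0277 from limma).

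Matricellular genes other than the members moved in both directions, 2 of 10 higher and 2 lower, with a median of -0.24. *Ctgf* and *Cyr61*, which encode integrin-binding proteins of the CCN family, were higher. *Cyr61* had 72.9, 75.5 and 47.1 RPKM in KD and 32.0, 41.6 and 37.0 RPKM in controls (log2 fold change 0.78, adjusted p = 0.0281 from limma). *Ctgf* had 30.1, 28.7 and 18.7 RPKM in KD and 4.68, 19.8 and 5.08 RPKM in controls (log2 fold change 1.55, adjusted p = 0.0446 from limma), where KD replicate 3 lay below control replicate 2. *Smoc1*, a calcium-binding relative of *Sparc*, had a log2 fold change of -1.19 (adjusted p = 0.0106 from limma) and *Spon2* of -0.64 (adjusted p = 0.0132).

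Among receptors for matrix proteins, 1 of 12 was higher and 2 were lower, with a median of 0.013. *Cd44*, the receptor for hyaluronan, had 9.75, 7.87 and 8.23 RPKM in KD and 4.92, 7.38 and 5.09 RPKM in controls (log2 fold change 0.51, adjusted p = 0.0465 from limma). *Ddr2*, a collagen receptor, fell by 0.64 (adjusted p = 0.0154) and the laminin receptor subunit *Itga6* by 0.56 on the log2 scale (adjusted p = 0.0222 from limma).

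The genes that build glycosaminoglycans had 2 of 20 called higher and 4 lower, with a median of -0.037. *Has2*, which makes the hyaluronan that versican binds, had 11.8, 12.6 and 10.2 RPKM in KD and 4.02, 4.46 and 4.22 RPKM in controls. Every KD library was well above the controls, with a log2 fold change of 1.25 and an adjusted p of 0.00203 from limma. *Dsel*, related to the enzyme that turns chondroitin sulfate into dermatan sulfate, had 1.24, 1.37 and 1.85 RPKM in KD and 6.58, 6.56 and 6.89 RPKM in controls (log2 fold change -1.63, adjusted p = 0.00201 from limma). Of the enzymes that start chondroitin sulfate chains, *Csgalnact1* fell from 2.30 ± 0.417 to 0.725 ± 0.246 RPKM (SD, n = 3; log2 fold change -0.94, adjusted p = 0.00623 from limma) and *Csgalnact2* rose from 5.58 ± 0.216 to 8.09 ± 0.947 RPKM (SD, n = 3; log2 fold change 0.46, adjusted p = 0.0219 from limma).

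Markers of adipocytes were high in every library. The sum of 7 adipocyte markers was 4397 to 5864 RPKM in KD and 6053 to 6707 RPKM in controls, and 1 of 7, *Cebpa*, was called, with 32.8, 31.8 and 63.9 RPKM in KD and 78.2, 75.4 and 74.1 RPKM in controls. *Adipoq*, *Fabp4*, *Plin1*, *Lpl* and *Pparg* were not called, but each was below every control in every KD library. *Cidec* overlapped, and the median log2 fold change of the list was -0.36. Of all genes tested, 44.8% did not overlap in either direction. Of 7 preadipocyte or fibroblast markers, 5 were tested and 1, *Pdgfra*, was called lower (log2 fold change -0.69, adjusted p = 0.0104 from limma), and the summed level ran from 184.6 to 405.6 RPKM in KD and from 282.2 to 455.8 RPKM in controls. Sums of 5 endothelial markers were at most 1.45 RPKM, and those of 5 epithelial markers at most 0.523 RPKM. Of 6 macrophage or leukocyte markers, 5 were found and 1, *Cd68*, was called higher (log2 fold change 1.05, adjusted p = 0.0230 from limma). *Csf1r* did not pass the filter on low values, and was higher in every KD library too. It had 1.31, 1.48 and 1.10 RPKM in KD and 0.269, 0.833 and 0.438 RPKM in controls. *Ptprc*, which marks leukocytes, stayed at or below 0.0486 RPKM in all libraries. *Lyz2*, the other marker of that list that was tested, had 1.24, 1.70 and 12.8 RPKM in KD and 7.41, 24.5 and 6.90 RPKM in controls (log2 fold change -1.45, adjusted p = 0.167 from limma). The part of adipocyte and fibroblast markers in the levels of *Fbn1*, *Postn* and *Tnc* was not tested.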

How the data were processed

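RNA of 3 *Ctcflos* KD and 3 NC ctrl libraries, prepared with a stranded total RNA kit, was sequenced in 150 bp paired-end reads. The authors deposited 1 table of RPKM values, in which each line is a RefSeq, Ensembl or GenBank accession. STAR 2.5.3a, GRCm38 and Gencode vM21 are named for the splice analysis of the study, and how this table was made is not given in the sources used here. Values were read with decimal commas, and 305 of 168326 lines, exact repeats, were removed. No count model was fitted, and reads recovered from RPKM were used for depth, transcript lengths and exons alone.

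The gene value was the mean RPKM over accessions of a symbol. Genes that reached a mean RPKM of 1 were tested on log2(RPKM + 1) with limma 3.58.1 in R 4.3.3, and accession usage on log2(RPKM + 0.1) with diffSplice, with Benjamini-Hochberg adjustment over all features. Single values were compared by exact permutation tests in Python 3.11.15. For 3 libraries against 3, p cannot go below 0.1. The depth was recovered from low RPKM values, of which at least 95.5% were whole reads within 0.06, and exon reads from differences between accessions, a step chosen after seeing the data. Groups and replicate numbers are from the labels. Members and lists were chosen with earlier results of these data known. Besides the members and *Ctcflos*, up to 2 called genes with the highest and 2 with the lowest log2 fold change in each list are named, and of each member the accession with the largest share, RefSeq mRNAs and the one with the smallest usage p were eligible. *Acta2*, *Ly6a*, *Pdgfrb*, *Thy1*, *Csf1r*, *Ptprc*, *Lyz2* and the adipocyte markers besides *Cebpa* were named after their values were seen. Overlapping or antisense genes can share reads, as strand in counting is not stated.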

Additional observations from a re-analysis of the deposited data

How the results depend on the processing

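The 3 members called for abundance stayed at 3 with a pseudocount of 0.1, scaling by the median of ratios, RefSeq mRNAs or Ensembl transcripts alone and the median over accessions. Without a filter on low values 2 were called. An adjusted p of 0.01 left 1. Leaving out 1 library gave 1 to 2, with 1 without control replicate 1 or control replicate 3. *Lum* turned direction, to -0.065 without KD replicate 2 and -0.11 without control replicate 2, and lay between -0.11 and 0.17. The 285-base stretch of *Fn1* turned from a ratio of 0.980 to 1.03 without KD replicate 1 and 1.01 without control replicate 2, within 0.943 to 1.03.

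Between same-numbered libraries, the correlations of deviations from the group means were 0.287, -0.288 and -0.418 for replicates 1 to 3. With so few libraries these values cannot decide whether same-numbered libraries belong together, and the labels do not say. With the replicate block, 1 member was called for abundance, *Fbn1*, and 1 for usage, *Vcan*.

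The 18 genes called in the matrix lists became 9 without a filter, 10 with Ensembl transcripts alone, 4 at an adjusted p of 0.01 and 4 to 22 with 1 library left out, 4 of them without control replicate 1 or 3 and 8 without KD replicate 2. The 2 members called for usage became 1 at an adjusted p of 0.01 and 0 with accessions of at least 5% of the gene, RefSeq mRNAs alone or accessions set against the mean of their gene (by limma, 0, 0 and 2 members at an unadjusted p under 0.05). With 1 library left out they were 1 to 4, being 4 without KD replicate 2. The *Sparc* call was lost without each of the other 5 libraries and *Vcan* was called in all 6 of these fits. Shares without overlap numbered 16 of 106 member accessions, and 20 to 25 with 1 library left out, a test that has fewer values to keep apart. The *Tnc* exon rests on 14 to 88 reads a library, which limits its precision more than that of the other exons.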
